A study of Mus musculus with 12 samples.

Results

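Genes that build, cross-link and break down the extracellular matrix are described here, as 3 tissue inhibitors of metalloproteinases (Timp1, Timp2 and Timp3), 3 matrix metalloproteinases (Mmp2, Mmp12 and Mmp14), 3 lysyl oxidases (Lox, Loxl1 and Loxl2) and fibronectin (Fn1). These 10 genes were chosen by symbol out of the 47069 genes of the deposited expression table. Each symbol stood for 1 gene identifier, and no other gene had the same values in the 12 libraries.

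The study addressed what the loss of hepatocyte division does to the young liver. Hepatocytes isolated from mice at P14, and whole liver, were sequenced for polyadenylated RNA, with 3 libraries for each pairing of a compartment with a genotype, WT or Cdk1 Liv-/-. Cdk1 Liv-/- mice carry Cdk1 flox/flox alleles together with Albumin-Cre. The recombinase is thus made only where the albumin promoter is active, in hepatocytes and albumin-expressing precursors, so that stellate cells, endothelial cells and blood cells of the same liver keep an intact Cdk1. The controls are labelled wild type with no further allele given, and by the methods only males were used. The methods give 3 biological replicates as the minimum for each experiment, but the labels do not say which libraries come from separate animals. The p-values therefore measure the spread between these libraries, which may in part be technical.

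Levels are in FPKM, which counts fragments per length of transcript and per sequencing depth and so allows genes to be compared with each other. Cdk1 itself was at 27.9, 20.4 and 28.2 FPKM in WT hepatocytes and at 9.68, 11.8 and 6.87 FPKM in Cdk1 Liv-/- hepatocytes. In whole liver it was at 25.3, 22.7 and 21.5 FPKM in WT and at 11.7, 12.1 and 14.2 FPKM in Cdk1 Liv-/-. In both compartments the Cdk1 Liv-/- libraries lay below the WT libraries, in the direction of the labels. Its log2 fold change, given throughout with ± the standard error, was -1.40 ± 0.22 (limma adjusted p = 0.0148) in hepatocytes and -0.85 ± 0.10 (limma adjusted p = 0.00353) in whole liver. By quantitative PCR the paper found Cdk1 mRNA hardly detectable in P14 Cdk1 Liv-/- hepatocytes. It describes an exon as the region that Cre removes, whereas the FPKM values are per gene, so these measures are unlike.

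Among the 12 libraries, 2 stood apart. Cdk1 Liv-/- whole liver replicate 3 held 158 FPKM of Xist, the RNA of the inactive X chromosome, while 4 genes of the Y chromosome, Kdm5d, Uty, Eif2s3y and Ddx3y, had listed values of 0. Elsewhere Xist did not exceed 0.14 FPKM and the sum over these 4 genes ran from 48.3 to 62.1 FPKM in the other 11 libraries. That library therefore does not have the RNA of a male mouse, against the methods. Whole liver changes of the 10 genes are given with and without it, and those of other genes and lists include it. WT hepatocyte replicate 3 stood apart by markers of other liver cells. In the 3 WT hepatocyte libraries, 12 stellate cell markers summed to 225, 136 and 448 FPKM, against 397, 398 and 427 FPKM in WT whole liver. The sum of 11 Kupffer cell markers was 376, 204 and 684 FPKM in WT hepatocytes and 537, 593 and 599 FPKM in WT whole liver. For 11 sinusoidal endothelial markers the sums were 189, 126 and 358 FPKM, against 188, 217 and 260 FPKM. In each of these 3 lists WT hepatocyte replicate 3 lay above all WT whole liver libraries, and WT hepatocyte replicate 2 was the lowest WT library.

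The label of isolated hepatocytes was checked against 10 hepatocyte markers, of which Alb was the most abundant. They summed to 83100, 91400 and 86000 FPKM in WT hepatocytes and to 85400, 84000 and 86300 FPKM in WT whole liver, so in WT the isolation did not raise this sum above whole liver. In Cdk1 Liv-/- the sums, which are mostly Alb, were lower, at 58600, 59600 and 56200 FPKM in hepatocytes and 66500, 59000 and 64600 FPKM in whole liver. Single markers went both ways in hepatocytes, where 2 passed as higher (Cps1 and Hnf4a) and 2 as lower (Ttr and Apoa1). In whole liver 0 passed as higher and 4 as lower, with a median log2 fold change of -0.46 (-0.68 with size factors). Among all genes 12.1% passed as higher and 6.61% as lower in hepatocytes, and 38.0% and 7.53% in whole liver. Against whole liver of the same genotype, 4 of the 10 markers passed as higher and 1 as lower in Cdk1 Liv-/- hepatocytes (median log2 fold change 0.27, or 0.54 with size factors). Hepatocyte markers were thus present in all 12 libraries, and the isolated hepatocytes also held RNA of other liver cells at levels that differed between libraries.

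Depth was estimated from the steps between the lowest FPKM values. An FPKM of 1 on 1 kb of transcript stood for a median of 47.2 reads (38.5 to 49.8) in hepatocytes of WT and 39.5 (34.7 to 40.4) in those of Cdk1 Liv-/-, and for 41.7 (41.6 to 43.3) and 47.7 (47.3 to 48.1) reads in the corresponding whole livers. All 10 genes passed the filter on low values, a mean of at least 0.1 FPKM over the 12 libraries, although Timp1 and Mmp12 were near or under 0.1 FPKM in WT hepatocytes and reached the mean through other groups.

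Matrix metalloproteinases are zinc-dependent proteases that cleave collagens, elastin and other components of the extracellular matrix, and TIMPs are secreted proteins that bind their active site and block them. Lysyl oxidases oxidise lysine side chains of collagen and elastin, which starts the cross-links that make a matrix stiff and resistant to proteases, and fibronectin is an adhesive glycoprotein on which collagen fibres assemble. In liver, stellate cells and portal fibroblasts are known as main producers of fibrillar collagens, lysyl oxidases and gelatinase A, macrophages as producers of macrophage elastase, and hepatocytes as the source of plasma fibronectin.

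Promoter sequences are shown for Timp1 and Mmp12, which were higher in Cdk1 Liv-/- than in WT in both compartments, and for Mmp14, the highest of the 3 metalloproteinases chosen. Of the 10 genes, 5 were matched to promoters in a RefSeq table of build GRCm38.p6 and searched in the 250 bases before the start, Mmp12 having a pair of starts. Searched on both strands were the AP-1 motif TGANTCA, the variant TGAGTAA, the ETS motif CAGGAAG, the STAT motif TTCNNNGAA, the GC box GGGCGG and the TATA box TATAAA. Among the 32851 promoters of the same length in the table, these letters were found in 6.75%, 2.25%, 10.8%, 7.02%, 32.7% and 12.4%, in that order. Matches are in capitals below, on the + strand of chrX:20869916-20870165 for Timp1, chr9:7344147-7344396 and chr9:7347124-7347373 for Mmp12 and chr14:54431348-54431597 for Mmp14.
Timp1: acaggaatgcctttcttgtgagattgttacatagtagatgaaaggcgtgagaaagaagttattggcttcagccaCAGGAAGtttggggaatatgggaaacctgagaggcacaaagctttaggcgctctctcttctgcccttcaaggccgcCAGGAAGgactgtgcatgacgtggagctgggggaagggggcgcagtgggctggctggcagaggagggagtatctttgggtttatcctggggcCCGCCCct
Mmp12, upstream start: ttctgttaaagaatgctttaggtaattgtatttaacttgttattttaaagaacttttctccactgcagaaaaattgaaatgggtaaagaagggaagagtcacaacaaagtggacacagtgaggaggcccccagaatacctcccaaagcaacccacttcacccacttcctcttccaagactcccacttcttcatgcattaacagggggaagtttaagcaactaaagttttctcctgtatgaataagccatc
Mmp12, downstream start: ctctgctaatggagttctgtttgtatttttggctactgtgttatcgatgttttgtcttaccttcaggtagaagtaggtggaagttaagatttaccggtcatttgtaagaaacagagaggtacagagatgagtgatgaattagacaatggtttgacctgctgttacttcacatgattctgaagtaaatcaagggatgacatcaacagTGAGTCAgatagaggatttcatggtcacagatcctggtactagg
Mmp14: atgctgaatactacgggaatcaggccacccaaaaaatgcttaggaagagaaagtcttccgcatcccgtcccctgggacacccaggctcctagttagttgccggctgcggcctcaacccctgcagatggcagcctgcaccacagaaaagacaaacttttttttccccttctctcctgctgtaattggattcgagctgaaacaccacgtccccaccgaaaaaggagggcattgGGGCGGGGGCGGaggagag
The Timp1 window held the ETS motif at 176 and 100 bases before the start and, read on the other strand, a GC box at 8 bases. The downstream Mmp12 window, which lies within the annotated gene and holds no exon, had 1 AP-1 match at 44 bases before the start, and the upstream one, whose last 16 bases are exon by GENCODE, held none of the 6 motifs. The Mmp14 window had adjoining GC boxes at 19 and 13 bases. Timp2 and Timp3, whose windows hold 203 and 40 exon bases by GENCODE, had 1 GC box each, and Timp3 also 1 ETS motif. A match describes the letters of these windows and not the binding of a factor.

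By level, Fn1 came first and Mmp14 second in each of the 4 groups. Fn1 averaged 747 FPKM (SD 68.9, n = 3) in WT and 677 FPKM (SD 46.5, n = 3) in Cdk1 Liv-/- hepatocytes, and 751 FPKM (SD 13.97, n = 3) and 790 FPKM (SD 48.6, n = 3) in whole liver of these genotypes. Mmp14 averaged 35.4, 27.4, 35.4 and 59.9 FPKM in the same order (SD 3.24, 4.36, 4.85 and 8.34, n = 3 each). The other 8 genes lay far below Fn1, with group means between 0.0633 and 23.7 FPKM. In WT, Timp1 and Mmp12 were the lowest of the 10 genes in both compartments, and in Cdk1 Liv-/- Timp1 was the third highest in both. Neighbours in the middle of the order had overlapping libraries, for example Mmp2, Loxl2, Timp3 and Timp2 in WT hepatocytes, whose means ran from 6.01 to 2.87 FPKM.

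**Figure D1:**
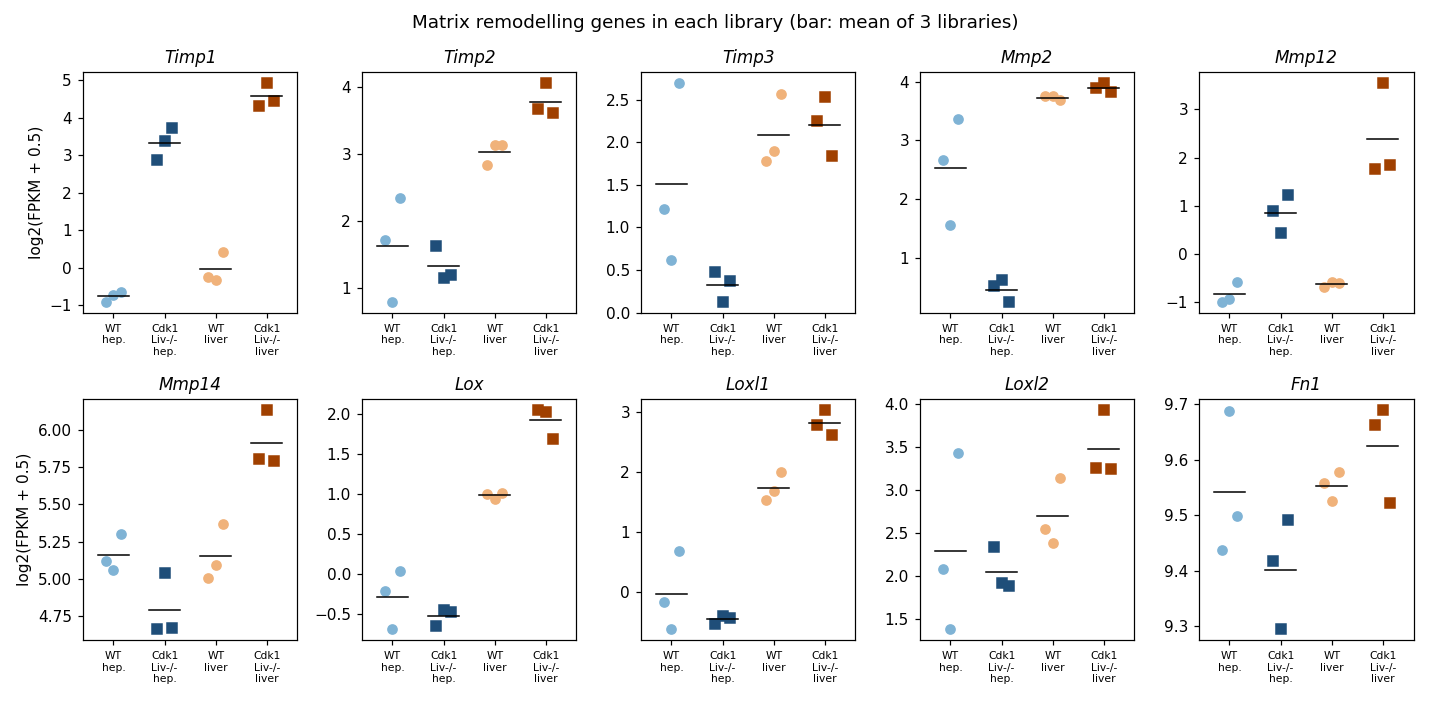
Level of each of the 10 genes in each library as log2(FPKM + 0.5), with 1 point per library and a bar at the mean of 3 libraries by genotype and compartment. Timp1 was at 0.03 to 0.85 FPKM in the WT libraries and at 6.83 to 30.1 FPKM in the Cdk1 Liv-/- libraries, while the Fn1 axis spans less than 1 log2 unit.

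Genotypes were compared with limma on log2(FPKM + 0.5), a scale that understates the changes of genes with low levels, and a gene passed at an adjusted p of at most 0.1. In isolated hepatocytes 2 of the 10 genes passed as higher in Cdk1 Liv-/-, as did 12.1% of all 17386 genes tested, and 1 passed as lower, as did 6.61% of all genes. When the log2 fold change also had to reach 1 in size, the 2 higher genes, Timp1 and Mmp12, remained (4.20% of all genes) and so did the lower one, Mmp2 (2.17% of all genes). Libraries of the genotypes did not overlap for 2 higher and 3 lower genes, against 20.6% and 13.4% of all genes. With 10 genes each such count is 1 to 3 genes. The count of lower genes rested on single libraries, being 0 without WT replicate 1 or Cdk1 Liv-/- replicate 3 and 2 without WT replicate 2 or Cdk1 Liv-/- replicate 2.

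In whole liver 8 of the 10 genes passed as higher in Cdk1 Liv-/-, where 38.0% of all genes did, and the other 2 were Timp3 and Fn1. None passed as lower with limma, nor at an unadjusted p under 0.05 or in an unmoderated test of each gene, where 7.53% of all genes passed as lower with limma. When it had to reach 1 as well, 3 were higher (Timp1, Mmp12 and Loxl1), against 4.59% of all genes. The libraries of the 8 genes did not overlap between the genotypes, as held for 43.2% of all genes. The median log2 fold change of all genes was 0.18 in whole liver and 0.05 in hepatocytes, and in whole liver it became 0.01 when FPKM was divided by median-ratio size factors. Under that scaling 3107 genes passed as higher and 2844 as lower, in place of 6610 and 1310, and 6 of the 10 genes passed as higher, since Mmp2 and Loxl2 did not. Changes in whole liver are therefore also given relative to the median of 0.18. The same 8 genes passed when the library that held Xist was left out, with log2 fold changes of 0.83 for Timp2 and 0.81 for Mmp14, while Timp3 (0.31) and Fn1 (0.12) again did not pass. Values of the other 6 without it stand with each gene.

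**Figure D2:**
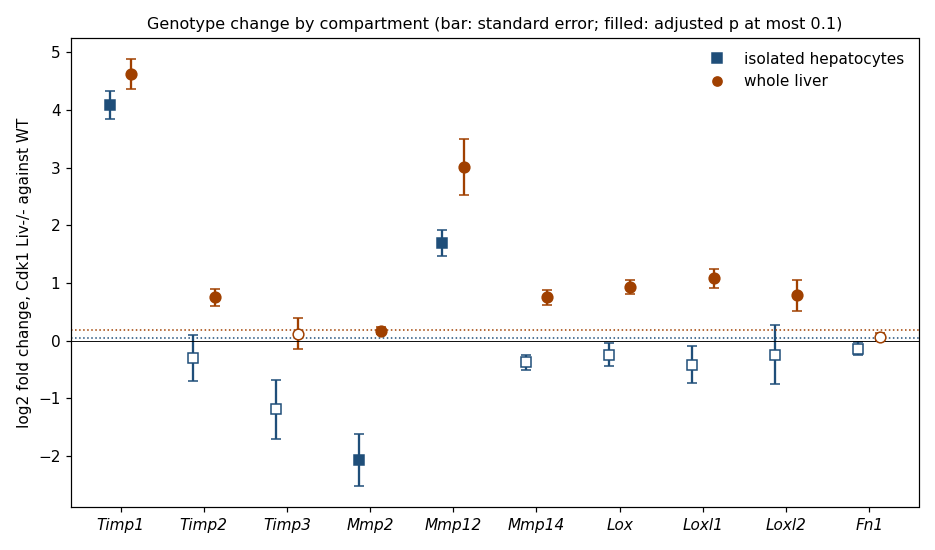
Log2 fold change of each gene, Cdk1 Liv-/- against WT, in isolated hepatocytes (squares) and whole liver (circles), with the standard error as a bar, filled where the adjusted p was at most 0.1 and with dotted lines at the medians of all genes (0.05 and 0.18). Timp1 and Mmp12 lay above 1 in both compartments, and Mmp2 was at -2.07 in hepatocytes and 0.17 in whole liver, where Mmp2, Timp3 and Fn1 turned to -0.04, -0.07 and -0.15 with size factors.

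Timp1, the inhibitor best known as induced in injured tissue, was close to absent in WT and rose in both compartments. In WT hepatocytes it was at 0.03, 0.10 and 0.14 FPKM, about 1.3, 3.4 and 5.8 reads, and in Cdk1 Liv-/- hepatocytes at 6.83, 9.88 and 12.8 FPKM, about 240, 340 and 390 reads. Whole liver held Timp1 at 0.35, 0.30 and 0.85 FPKM in WT and at 19.5, 30.1 and 21.6 FPKM in Cdk1 Liv-/-. The lowest Cdk1 Liv-/- library thus stood well above the highest WT library in each compartment, with no overlap. The log2 fold change was 4.09 ± 0.24 (limma adjusted p = 0.0011) in hepatocytes and 4.62 ± 0.26 (limma adjusted p = 0.000416) in whole liver, 4.04 and 4.43 above the medians of all genes. In each compartment 99.9% of all genes had a lower fold change. Without Cdk1 Liv-/- whole liver replicate 3 the whole liver value was 4.67. The change in hepatocytes minus that in whole liver was -0.52 and did not pass (adjusted p = 0.420), and with a pseudocount of 0.1 that difference was 0.31.

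Timp2, which besides blocking metalloproteinases takes part in the activation of pro-MMP2 by MMP14, behaved differently. In hepatocytes it was at 2.80, 1.23 and 4.59 FPKM in WT and at 2.60, 1.72 and 1.78 FPKM in Cdk1 Liv-/-, with overlap and a log2 fold change of -0.30 that did not pass (adjusted p = 0.668) and was 0.07 without WT replicate 3. In whole liver it rose from 6.62, 8.32 and 8.27 FPKM to 12.2, 16.2 and 11.7 FPKM. All Cdk1 Liv-/- whole liver libraries lay above all WT whole liver libraries, a log2 fold change of 0.75 ± 0.15 (limma adjusted p = 0.0161) that was 0.56 above the median of all genes. The call was lost in 1 fit of all 12 libraries (adjusted p = 0.111, in a range of 0.0103 to 0.111).

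Timp3, an inhibitor that stays bound to the matrix, did not pass in either compartment. Its levels in hepatocytes were 1.83, 1.04 and 5.98 FPKM in WT and 0.89, 0.59 and 0.79 FPKM in Cdk1 Liv-/-, and WT replicate 3 was the highest of the 12 libraries. The genotypes did not overlap there, yet the log2 fold change of -1.19 had a standard error of 0.51 (limma adjusted p = 0.191). It was -1.64 and passed without WT replicate 2 (adjusted p = 0.0996) and was -0.60 without WT replicate 3 (adjusted p = 0.202), in a range of 0.0723 to 0.357 over the alternatives. It also passed in 1 fit of all 12 libraries (-1.19, adjusted p = 0.0723). In whole liver Timp3 ranged from 2.94 to 5.43 FPKM in WT and from 3.06 to 5.29 FPKM in Cdk1 Liv-/-, with a log2 fold change of 0.12 that turned to -0.07 with size factors. Timp3 lies inside Syn3 on the opposite strand and shares 1733 exon bases with it, and Syn3, named for its position, was at 0.21 to 0.40 FPKM in the 12 libraries.

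The make-up of the 3 inhibitors therefore shifted. Timp1 held 0.644%, 4.22% and 1.31% of their summed FPKM in WT hepatocytes and 66.2%, 81.1% and 83.2% in Cdk1 Liv-/- hepatocytes. In whole liver its share was 3.53%, 2.53% and 5.84% in WT and 54.2%, 58.4% and 59.4% in Cdk1 Liv-/-. The sum itself went from 4.66, 2.37 and 10.7 to 10.3, 12.2 and 15.3 FPKM in hepatocytes, with WT replicate 3 above the lowest Cdk1 Liv-/- library. In whole liver it went from 9.91, 11.8 and 14.5 to 35.9, 51.6 and 36.4 FPKM, without overlap.

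**Figure D3:**
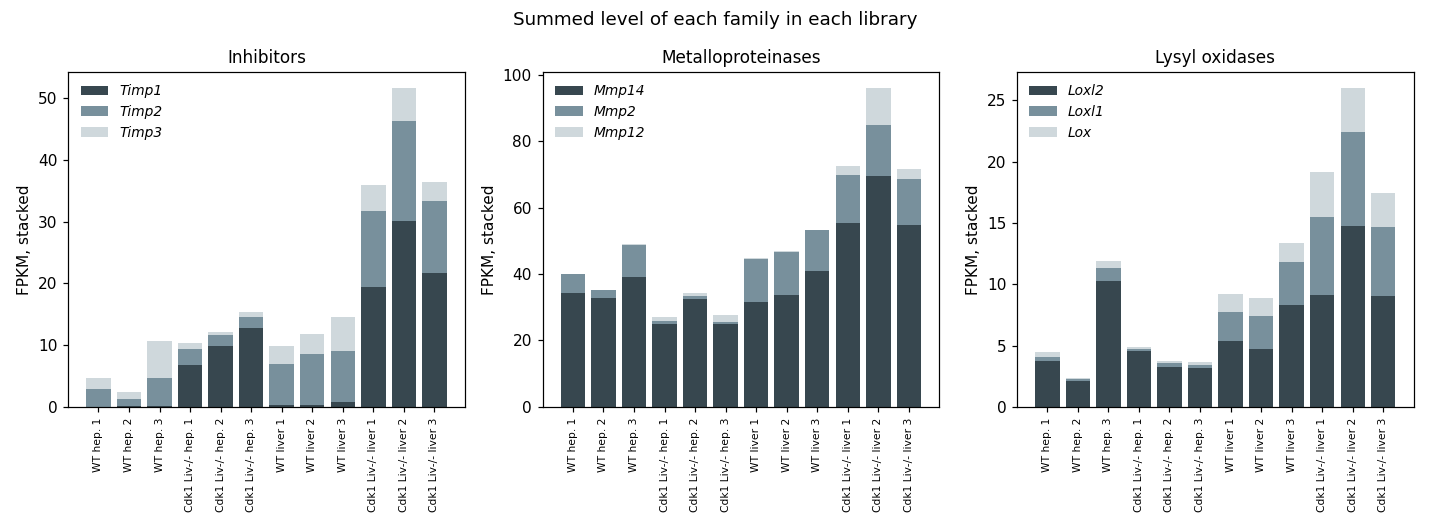
Summed FPKM of the 3 inhibitors, the 3 metalloproteinases and the 3 lysyl oxidases in each of the 12 libraries, stacked by gene. Timp1 made up 54.2% to 83.2% of the inhibitors in Cdk1 Liv-/- libraries and at most 5.84% in WT libraries, and Mmp14 made up 70.7% to 94.5% of the metalloproteinases in all 12 libraries.

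Mmp12, the macrophage elastase, rose in both compartments from levels near 0. In WT hepatocytes it was listed at 0 in replicate 1 and was at 0.02 and 0.17 FPKM in the others, and in Cdk1 Liv-/- hepatocytes it was at 1.35, 0.86 and 1.85 FPKM. Whole liver held Mmp12 at 0.12, 0.17 and 0.16 FPKM in WT and at 2.88, 11.2 and 3.08 FPKM in Cdk1 Liv-/-. The genotypes did not overlap in either compartment, and Cdk1 Liv-/- whole liver replicate 2 held more than the other 2 libraries of its group together. The log2 fold change was 1.69 ± 0.23 (limma adjusted p = 0.0097) in hepatocytes and 3.01 ± 0.49 (limma adjusted p = 0.00857) in whole liver, 2.82 above the median of all genes. Without Cdk1 Liv-/- whole liver replicate 2 it was 2.42 (adjusted p = 0.000875) and without replicate 3 it was 3.28 (adjusted p = 0.0226), in a range of 0.00057 to 0.0393 over the alternatives. The difference between the compartments was -1.31 and did not pass (adjusted p = 0.192).

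Mmp2, or gelatinase A, fell in hepatocytes and hardly moved in whole liver. It was at 5.83, 2.43 and 9.77 FPKM in WT hepatocytes and at 0.92, 1.03 and 0.68 FPKM in Cdk1 Liv-/- hepatocytes. Its whole liver levels were 12.98, 13 and 12.39 FPKM in WT and at 14.4, 15.3 and 13.7 FPKM in Cdk1 Liv-/-. The WT hepatocyte libraries differed from each other, with replicate 3 highest, but each lay above the Cdk1 Liv-/- hepatocyte libraries. The log2 fold change in hepatocytes was -2.07 ± 0.45 (limma adjusted p = 0.0379). It did not pass without WT replicate 1 (-2.0, adjusted p = 0.12) or without Cdk1 Liv-/- replicate 3 (-1.96, adjusted p = 0.113), and was -1.65 (adjusted p = 0.0656) without WT replicate 3, in a range of 0.00159 to 0.126 over the alternatives. No filter, the replicate block and the unmoderated test also ended the call (adjusted p = 0.105, 0.103 and 0.126). In whole liver the log2 fold change of 0.17 ± 0.06 (limma adjusted p = 0.0740) was 0.01 below the median of all genes and turned to -0.04 with size factors (adjusted p = 0.583). That call held without Cdk1 Liv-/- replicate 3 (0.21, adjusted p = 0.0752) but not without WT replicates 1, 2 or 3 (0.18, 0.18 and 0.15, adjusted p = 0.152, 0.132 and 0.174) or Cdk1 Liv-/- replicates 1 or 2 (0.17 and 0.13, adjusted p = 0.127 and 0.144). The replicate block (adjusted p = 0.106) and 1 fit of all 12 libraries (adjusted p = 0.744) ended it too, and the adjusted p ranged from 0.049 to 0.744 over the alternatives.

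Mmp14, a membrane-bound metalloproteinase that activates pro-MMP2, was the highest of the 3 chosen metalloproteinases in all 12 libraries. Outside the 3, Mmp19 lay above it in Cdk1 Liv-/- hepatocyte replicates 1 and 2, at 31.6 and 33.5 FPKM. It was at 34.3, 32.8 and 39.0 FPKM in WT hepatocytes and at 24.8, 32.5 and 25.0 FPKM in Cdk1 Liv-/- hepatocytes. In whole liver it was at 31.6, 33.7 and 40.9 FPKM in WT and at 55.4, 69.5 and 54.8 FPKM in Cdk1 Liv-/-. In hepatocytes the Cdk1 Liv-/- libraries lay below the WT libraries by a narrow margin, and in whole liver they lay above them. The log2 fold change in hepatocytes was -0.37 ± 0.13 (limma adjusted p = 0.131) and did not pass. It passed without Cdk1 Liv-/- hepatocyte replicate 2 (-0.49, adjusted p = 0.0512) and with size factors (-0.44, adjusted p = 0.0633), in a range of 0.0512 to 0.291. It also passed in 1 fit of all 12 libraries (-0.37, adjusted p = 0.0804). Mmp14 rose in whole liver by 0.75 ± 0.13 (limma adjusted p = 0.0112), which was 0.57 above the median of all genes.

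Lox, which cross-links collagen and elastin, was at 0.36, 0.12 and 0.53 FPKM in WT hepatocytes and at 0.14, 0.23 and 0.22 FPKM in Cdk1 Liv-/- hepatocytes. Its levels in whole liver were 1.5, 1.42 and 1.52 FPKM in WT and at 3.63, 3.57 and 2.72 FPKM in Cdk1 Liv-/-. Genotypes overlapped in hepatocytes and were separate in whole liver, and the hepatocyte libraries lay below the whole liver libraries. Its log2 fold change was -0.24 ± 0.20 (limma adjusted p = 0.469) in hepatocytes and 0.93 ± 0.12 (limma adjusted p = 0.00432) in whole liver, 0.75 above the median of all genes.

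Loxl1, which is needed for elastic fibres, was at 0.39, 0.15 and 1.11 FPKM in WT hepatocytes and at 0.19, 0.26 and 0.24 FPKM in Cdk1 Liv-/- hepatocytes. Whole liver had 2.39, 2.71 and 3.53 FPKM in WT and at 6.44, 7.72 and 5.69 FPKM in Cdk1 Liv-/-. Its pattern was that of Lox, with overlap in hepatocytes and separate genotypes in whole liver. The log2 fold change was -0.42 ± 0.32 (limma adjusted p = 0.435) in hepatocytes and 1.08 ± 0.16 (limma adjusted p = 0.00714) in whole liver, 0.90 above the median of all genes. Without Cdk1 Liv-/- whole liver replicate 3, the whole liver values of Lox and Loxl1 were 1.05 and 1.18. In hepatocytes Lox was at -0.07 without WT replicate 3 and -0.44 without WT replicate 2, and Loxl1 at -0.06 and -0.71, none of which passed.

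Loxl2, which acts on basement membrane collagen, was the most abundant of the 3 lysyl oxidases, at 47.4% to 93.3% of their summed FPKM. It was at 3.72, 2.10 and 10.2 FPKM in WT hepatocytes and at 4.57, 3.29 and 3.20 FPKM in Cdk1 Liv-/- hepatocytes, with a log2 fold change of -0.24 (adjusted p = 0.790) that was 0.32 without WT replicate 3. Among whole liver libraries it was at 5.35, 4.73 and 8.32 FPKM in WT and at 9.09, 14.7 and 9.01 FPKM in Cdk1 Liv-/-. The genotypes were separate in whole liver by a small gap, between WT replicate 3 and Cdk1 Liv-/- replicate 3. The log2 fold change of 0.79 ± 0.27 (limma adjusted p = 0.0689) was 0.61 above the median of all genes. It did not pass with size factors (0.58, adjusted p = 0.177) or without WT replicate 1 (0.72, adjusted p = 0.183), WT replicate 2 (0.64, adjusted p = 0.178) or Cdk1 Liv-/- replicate 2 (0.56, adjusted p = 0.143), and passed without Cdk1 Liv-/- replicate 3 (0.90, adjusted p = 0.0973), in a range of 0.0476 to 0.203. No filter, the replicate block, the unmoderated test and 1 fit of all 12 libraries also ended the call (adjusted p = 0.145, 0.142, 0.149 and 0.203). Loxl2 shares 301 exon bases with Gm27177 on the opposite strand, named for its position, which was at 0.14 to 1.24 FPKM.

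Fn1, the scaffold of the early matrix, was at 693, 824 and 723 FPKM in WT hepatocytes and at 684, 628 and 720 FPKM in Cdk1 Liv-/- hepatocytes. In whole liver it was at 753, 736 and 764 FPKM in WT and at 810, 825 and 734 FPKM in Cdk1 Liv-/-. The genotypes overlapped in both compartments. The log2 fold changes of -0.14 ± 0.11 (limma adjusted p = 0.437) and 0.07 ± 0.07 (limma adjusted p = 0.463) did not pass, and the value in whole liver turned to -0.15 with size factors. An Fn1 value rests on about 210000 to 320000 reads, so that reads do not limit its precision.

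Whether the genotype changed a gene differently in hepatocytes and in whole liver was tested as the interaction over all 12 libraries, which the other comparisons share. The hepatocyte change was smaller than the whole liver change for 4 of the 10 genes at an adjusted p of at most 0.1, where 7.49% of all genes were smaller. None of the 10 was larger with limma, at an unadjusted p under 0.05 or in an unmoderated test, where 2.35% of all genes were larger with limma. With size factors 548 genes were larger and 492 smaller, in place of 409 and 1303, and 3 of the 10 genes were smaller, Loxl1 being lost (-1.33, adjusted p = 0.101). Hepatocytes minus whole liver, the difference was -2.24 ± 0.48 for Mmp2 (limma adjusted p = 0.0472) and -1.12 ± 0.20 for Mmp14 (limma adjusted p = 0.0335). For Lox it was -1.17 ± 0.25 (limma adjusted p = 0.0476) and for Loxl1 -1.50 ± 0.39 (limma adjusted p = 0.0678). The median difference of all genes was -0.11. All 4 calls were lost without WT whole liver replicate 1, with values of -2.25, -1.04, -1.18 and -1.40 and adjusted p-values of 0.129, 0.101, 0.13 and 0.165 in the order given. That of Loxl1 was also lost without WT whole liver replicates 2 and 3 (-1.47 and -1.64, adjusted p = 0.13 and 0.101), Cdk1 Liv-/- whole liver replicate 2 (-1.39, adjusted p = 0.139) and Cdk1 Liv-/- hepatocyte replicates 1 and 3 (-1.46 and -1.51, adjusted p = 0.104 and 0.105). For Loxl1 a pseudocount of 0.1 (-1.87, adjusted p = 0.112), no filter, the replicate block and the unmoderated test (adjusted p = 0.109, 0.1 and 0.111) ended the call too. Over the alternatives the adjusted p ranged from 0.00257 to 0.129 for Mmp2, 0.0144 to 0.101 for Mmp14, 0.0081 to 0.13 for Lox and 0.015 to 0.165 for Loxl1. Without WT hepatocyte replicate 3 all 4 passed, at -1.82, -1.05, -1.0 and -1.14, and without Cdk1 Liv-/- whole liver replicate 3 at -2.28, -1.18, -1.29 and -1.60. Timp2 and Timp3, at -1.04 and -1.31, passed only without WT hepatocyte replicate 2 (-1.46 and -1.76, adjusted p = 0.0211 and 0.0709, in ranges of 0.0211 to 0.348 and 0.0709 to 0.396). Of cell markers, 9 of 11 endothelial, 6 of 10 monocyte and macrophage, 4 of 11 Kupffer cell and 2 of 12 stellate were smaller. Their median differences were -1.74, -1.10, -1.42 and -1.26 (-1.60, -0.92, -1.29 and -1.11 with size factors). Of 10 hepatocyte markers 3 were larger and 0 smaller (median 0.32). Among further lists, 3 of 10 myofibroblast and 3 of 5 mesothelial markers were smaller (medians -0.95 and -1.12). For neutrophil and erythroid markers 0 of 10 and 0 of 8 were smaller, although their medians were -1.52 and -1.40. The part of cell numbers in these differences was not tested.

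Isolated hepatocytes were also compared with whole liver of the same genotype. In WT this cannot show where a gene was mainly found. Of 10 hepatocyte markers 0 were higher there (median log2 fold change 0.06), and of 11 endothelial markers 0 were lower (median 0.02). Other lists had lower medians in WT hepatocytes, beside -0.10 for all genes. They were -0.84 for stellate (0 of 12 passed as lower) and -0.53 for Kupffer cell markers (0 of 11). Monocyte and macrophage markers were at -0.71 (3 of 10) and myofibroblast markers at -1.35 (1 of 10). In WT 1 of the 10 genes passed, Lox, which was lower in hepatocytes by a log2 fold change of -1.27 ± 0.20 (limma adjusted p = 0.0840), where 1.42% of all genes were lower. This count rested on single libraries. It was 6 without WT hepatocyte replicate 3, where 2656 of all genes in place of 247 were lower, namely Timp2 (-1.78, adjusted p = 0.0461), Timp3 (-1.16, adjusted p = 0.0897), Mmp2 (-1.63, adjusted p = 0.0567), Mmp12 (-0.35, adjusted p = 0.0578), Loxl1 (-2.14, adjusted p = 0.0315) and Lox, and it was 0 without any 1 of the other 5 WT libraries, where Lox was at -1.07 to -1.31 with adjusted p-values of 0.141 to 0.301. Lox was also lost with a pseudocount of 0.1, no filter, size factors, the replicate block and the unmoderated test (adjusted p = 0.115, 0.119, 0.107, 0.192 and 0.178), in a range of 0.00914 to 0.301. In Cdk1 Liv-/- 9 of the 10 genes were lower in hepatocytes, where 35.9% of all genes were, and with size factors these 9 genes also passed while the counts of all genes went from 1540 higher and 6234 lower to 3502 and 3710. The changes ran from -3.45 ± 0.13 (limma adjusted p = 0.000224) for Mmp2 and -3.28 for Loxl1 to -1.12 for Mmp14, with a median of all genes of -0.19. Timp1 was lower in hepatocytes as well, by -1.25 ± 0.26 (limma adjusted p = 0.0136). Mmp12, at -1.53 (adjusted p = 0.0608), did not pass without Cdk1 Liv-/- hepatocyte replicates 1 or 2 (-1.54 and -1.32, adjusted p = 0.125 and 0.154), with no filter, the replicate block or the unmoderated test (adjusted p = 0.138, 0.119 and 0.154), and was -0.94 without Cdk1 Liv-/- whole liver replicate 2, in a range of 0.0112 to 0.154. Fn1, at -0.22, did not pass (adjusted p = 0.153), and turned to 0.05 with size factors. It passed in 1 fit of all 12 libraries (adjusted p = 0.0649). All 12 stellate, 11 endothelial, 11 Kupffer cell and 10 myofibroblast markers were lower in Cdk1 Liv-/- hepatocytes as well. Their medians were -2.08, -1.84, -1.96 and -2.01, while 4 of 10 hepatocyte markers were higher and 1 lower. The part of cell numbers in these changes was not tested.

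Markers of liver cell types moved with these genes, and fewer cells of a type cannot be told apart from less RNA per cell in such bulk libraries. Counts of markers stand beside 12.1% higher and 6.61% lower among all genes in hepatocytes, and 38.0% and 7.53% in whole liver. Of 11 sinusoidal endothelial markers, 10 were lower in Cdk1 Liv-/- hepatocytes than in WT hepatocytes, with sums of 85.6, 51.6 and 58.1 FPKM in Cdk1 Liv-/- and Egfl7 as the most abundant. Among 12 stellate markers, led by Dcn, 3 were lower, with sums of 127, 103 and 92.3 FPKM in Cdk1 Liv-/- hepatocytes. Of 11 Kupffer cell markers, led by Cd5l, 1 was lower, with sums of 229, 169 and 147 FPKM. Median log2 fold changes in hepatocytes were -1.66 for endothelial, -0.93 for stellate and -1.11 for Kupffer cell markers. The highest single values of these lists were -1.12, -0.41 and -0.50, so that markers which did not pass were also below 0. In whole liver the stellate markers summed to 515, 461 and 542 FPKM in Cdk1 Liv-/-, with 4 higher and 2 lower, the endothelial markers to 223, 306 and 238 FPKM, with 1 higher, and the Kupffer cell markers to 684, 923 and 715 FPKM, with 5 higher. These counts of higher markers are near or below the share of all genes, and with size factors the median log2 fold changes went from 0.20 to -0.01 for stellate, from 0.06 to -0.15 for endothelial and from 0.26 to 0.04 for Kupffer cell markers. Over the 12 libraries the Pearson correlation between log2(FPKM + 0.5) of Mmp2 and the log2 sum was 0.979 for the stellate list, 0.963 for the Kupffer cell list and 0.926 for the endothelial list, as a description of libraries that share 4 groups. Per 100 FPKM of stellate markers, Mmp2 was at 2.59, 1.79 and 2.18 FPKM in WT hepatocytes, at 0.723, 0.996 and 0.737 FPKM in Cdk1 Liv-/- hepatocytes and at 2.53 to 3.32 FPKM in whole liver. Per 100 FPKM of endothelial markers, the hepatocyte values overlapped, at 3.08, 1.93 and 2.73 FPKM in WT and 1.07, 2 and 1.17 FPKM in Cdk1 Liv-/-. For Kupffer cell markers they did not, at 1.55, 1.19 and 1.43 FPKM in WT and 0.402, 0.608 and 0.461 FPKM in Cdk1 Liv-/-. The part of cell numbers in the fall of Mmp2 was not tested.

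Some markers of other cell types were higher in whole liver beside Timp1, Mmp12 and the lysyl oxidases. Of 10 markers of monocytes and monocyte-derived macrophages, led by Plac8, 9 were higher in Cdk1 Liv-/- whole liver and 3 (Ccr2, Cx3cr1 and Gpnmb) in Cdk1 Liv-/- hepatocytes. They summed to 32.7, 34 and 32.3 FPKM in WT whole liver and 89.1, 110 and 83.7 FPKM in Cdk1 Liv-/- whole liver, against 16.1, 9.66 and 26.2 FPKM in WT hepatocytes and 21.5, 18.4 and 25.3 FPKM in Cdk1 Liv-/- hepatocytes. In hepatocytes these sums overlapped between the genotypes, whereas Ccr2, Cx3cr1 and Gpnmb, like Mmp12 and Timp1, did not. Among all genes 20.6% were higher there without overlap, and the other 7 markers of the list did not pass. Of 10 neutrophil markers, led by S100a9, 7 were higher in whole liver, with sums of 74.4, 46.1 and 71.1 FPKM in WT and 89.4, 319 and 258 FPKM in Cdk1 Liv-/-. Myofibroblast and portal fibroblast markers, 10 genes led by Tagln, were higher for 5 in whole liver and summed to 42.9, 48.9 and 64.6 FPKM in WT and 86.2, 79.5 and 62.5 FPKM in Cdk1 Liv-/-, with overlap and a median log2 fold change of 0.52 (0.31 with size factors). That count is near the 38.0% of all genes. In hepatocytes 1 of them was higher, and they summed to 12.2, 7.73 and 24 FPKM in WT and 9.22, 11.2 and 12 FPKM in Cdk1 Liv-/-. All 5 mesothelial markers, led by Msln, were higher in whole liver, with sums of 2, 0.95 and 0.71 FPKM in WT and 4.81, 7.19 and 5.65 FPKM in Cdk1 Liv-/-. In the WT libraries Lrrn4 was at 0.01 to 0.11 FPKM and Wt1 at 0 to 0.25 FPKM. These markers met the filter only through the Cdk1 Liv-/- libraries. No marker of these lists was at 0 in all 12 libraries. Their part in the changes of the 10 genes was not tested.

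**Figure D4:**
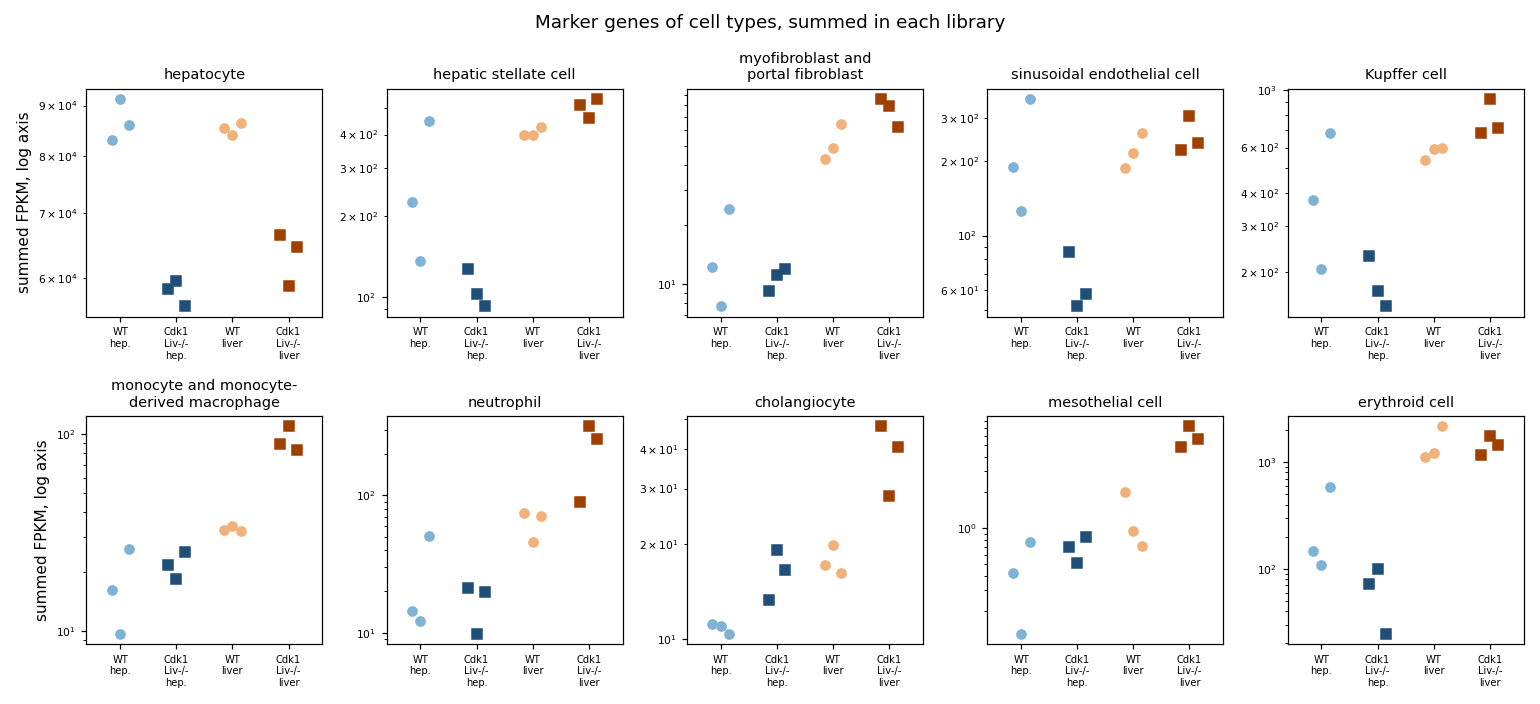
Summed FPKM of the marker genes of 10 liver cell types in each library, on log axes. Stellate and endothelial sums were lowest in Cdk1 Liv-/- hepatocytes (92.3 to 127 and 51.6 to 85.6 FPKM), Kupffer cell sums there (147 to 229 FPKM) overlapped with WT hepatocyte replicate 2 (204 FPKM), WT hepatocyte replicate 3 lay above WT whole liver for these 3 lists and below it for myofibroblasts and erythroid cells, and monocyte and macrophage sums were highest in Cdk1 Liv-/- whole liver (83.7 to 110 FPKM).

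Relatives of the 10 genes were counted over lists in which the 10 genes are left out, and the counts below stand beside 12.1% higher among all genes in hepatocytes and 38.0% in whole liver. Among 3 tested other inhibitors of metalloproteinases, A2m, which traps proteases in plasma, rose in hepatocytes from 1.39, 0.74 and 1.49 to 5.70, 8.66 and 13.3 FPKM (2.47 ± 0.34, limma adjusted p = 0.00958) and in whole liver by 2.55, while Reck and Pzp did not pass. Timp4 was below the filter, at 0.11, 0.12 and 0.49 FPKM in Cdk1 Liv-/- hepatocytes and at most 0.03 FPKM in the other 9 libraries. Of 11 tested other metalloproteinases, 2 were higher in hepatocytes (median log2 fold change 0.03) and 5 in whole liver (median 0.66, or 0.51 with size factors), near the shares of all genes. Mmp15, a membrane-bound relative of Mmp14, rose in both, from 5.28, 5.40 and 4.76 to 8.54, 14.4 and 10.6 FPKM in hepatocytes (log2 fold change 1.02, limma adjusted p = 0.0255) and from 6.03, 6.97 and 5.45 to 15.4, 11.5 and 16.4 FPKM in whole liver (1.16, limma adjusted p = 0.00523). Mmp23 rose in whole liver, from 2.06, 2.83 and 2.49 to 5.93, 7.79 and 6.38 FPKM (1.28, limma adjusted p = 0.00309). Mmp24 passed in both compartments at levels of at most 0.29 FPKM, although it was at most 0.01 FPKM in WT and met the filter only through the Cdk1 Liv-/- libraries, and Mmp8 and Mmp11 in whole liver. Mmp11 did not pass with size factors (0.35, adjusted p = 0.240) or without WT replicates 1 or 3 (0.42 and 0.49, adjusted p = 0.248 and 0.216) or Cdk1 Liv-/- replicates 2 or 3 (0.49 and 0.42, adjusted p = 0.203 and 0.230), nor with no filter, the unmoderated test or 1 fit of all 12 libraries (adjusted p = 0.186, 0.177 and 0.197), in a range of 0.054 to 0.248. The Mmp24 call in hepatocytes was lost without WT replicate 1 (0.50, adjusted p = 0.12) and Cdk1 Liv-/- replicate 2 (0.47, adjusted p = 0.102) and with the replicate block (adjusted p = 0.107), in a range of 0.00586 to 0.12. Of the other lysyl oxidases, Loxl3 passed in whole liver (0.41, adjusted p = 0.0267), though not with size factors or in 1 fit of all 12 libraries (0.24 and 0.41, adjusted p = 0.125 and 0.189, in a range of 0.0204 to 0.189), and Loxl4 did not.

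Other proteases were counted in the same way. Of 19 ADAM and ADAMTS proteases, 1 was lower in hepatocytes (median log2 fold change -0.26) and 14 were higher and 1 lower in whole liver, with a median of 0.44 (0.24 with size factors). Adamts7, a protease of cartilage matrix proteins, was the lower one in both, falling from 14.9, 13.5 and 12.7 to 8.44, 5.16 and 5.17 FPKM in hepatocytes (log2 fold change -1.10, limma adjusted p = 0.0223) and by 0.63 in whole liver. Adam8, a protease of leukocytes, rose in whole liver by 0.98 (limma adjusted p = 0.0166). In the plasminogen system of 8 genes, 1 was higher and 2 lower in hepatocytes, and 4 were higher and 2 lower in whole liver, with medians of -0.24 and 0.89 (-0.32 and 0.69 with size factors). Plat, the tissue plasminogen activator, was at 0.03, 0.05 and 0.32 FPKM in WT hepatocytes and 0.85, 0.68 and 1.66 FPKM in Cdk1 Liv-/- hepatocytes, a log2 fold change of 1.28 (limma adjusted p = 0.0400). That call was lost without WT replicate 1 (1.17, adjusted p = 0.129) and WT replicate 2 (1.2, adjusted p = 0.102), and with no filter and the unmoderated test (adjusted p = 0.106 and 0.125), in a range of 0.00492 to 0.129. In whole liver Plat rose from 0.34, 0.32 and 0.58 to 3.99, 5.99 and 4.33 FPKM, by 2.52 (limma adjusted p = 0.000881). Serpinf2, the plasmin inhibitor of hepatocytes, fell by 0.59 in hepatocytes (limma adjusted p = 0.0175) and by 0.38 in whole liver (limma adjusted p = 0.00584). Plg, the precursor of plasmin, fell by 0.37 in whole liver. Plau was lower in hepatocytes at an adjusted p of 0.0991 that was 0.174 without WT replicate 1 and 0.204, 0.199 and 0.210 without Cdk1 Liv-/- replicates 1, 2 and 3 (-1.42, -1.26, -1.32 and -1.32), and 0.125, 0.217, 0.143 and 0.218 with a pseudocount of 1, no filter, the replicate block and the unmoderated test, in a range of 0.0257 to 0.218.

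Substrates and partners of the 10 genes were counted as well. Of 16 genes of fibrillar collagens and their processing, 2 were higher in hepatocytes, as many as the share of all genes would give, and 13 in whole liver, with median log2 fold changes of -0.21 and 0.62 (-0.28 and 0.40 with size factors). Col1a1 rose in whole liver from 18.9, 19.1 and 26.0 to 66.9, 112 and 55.2 FPKM (1.80 ± 0.28, limma adjusted p = 0.00783), and in hepatocytes it was at 1.98, 0.84 and 9.40 FPKM in WT and 2.20, 3.27 and 2.35 FPKM in Cdk1 Liv-/-, with overlap. Col5a3 rose in both, by 1.37 (limma adjusted p = 0.00465) and 1.39 (limma adjusted p = 0.00498). P4ha2, a prolyl hydroxylase, was the other gene past the threshold in hepatocytes (1.08, adjusted p = 0.0558), lost without WT replicates 1 and 2 (0.89 and 1.05, adjusted p = 0.145 and 0.124) and Cdk1 Liv-/- replicates 1 and 3 (0.92 and 1.10, adjusted p = 0.137 and 0.134), and with no filter, the replicate block and the unmoderated test (adjusted p = 0.126, 0.144 and 0.139), in a range of 0.0164 to 0.145. Of 19 tested elastic fibre and matricellular genes, 1 was lower in hepatocytes and 13 were higher and 1 lower in whole liver, with medians of -0.67 and 0.69 (-0.73 and 0.47 with size factors). Lum, a collagen-binding proteoglycan, rose in whole liver from 14.2, 12.3 and 13.6 to 47.5, 63.3 and 51.6 FPKM (1.97 ± 0.12, limma adjusted p = 0.000519), and Thbs1 rose by 1.53 (limma adjusted p = 0.0015). Ltbp4 was the lower gene in hepatocytes (-2.11, adjusted p = 0.0493), lost without Cdk1 Liv-/- replicates 2 and 3 (-2.07 and -1.95, adjusted p = 0.127 and 0.141) and with no filter, the replicate block and the unmoderated test (adjusted p = 0.131, 0.12 and 0.152, in a range of 0.00368 to 0.152). Fbln5 was the lower gene in whole liver (-0.45, adjusted p = 0.0680), lost without WT replicates 1 and 3 (-0.37 and -0.44, adjusted p = 0.190 and 0.152) and Cdk1 Liv-/- replicate 2 (-0.30, adjusted p = 0.106), and with no filter, the unmoderated test and 1 fit of all 12 libraries (adjusted p = 0.13, 0.129 and 0.302), in a range of 0.042 to 0.302.

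Of 9 tested receptors of fibronectin, 2 were higher and 1 lower in hepatocytes, and 7 were higher in whole liver, with median log2 fold changes of 0.12 and 0.43 (0.04 and 0.25 with size factors). Itga3, an integrin chain of epithelial cells, rose from 1.22, 1.22 and 1.30 to 2.58, 2.80 and 2.64 FPKM in hepatocytes (0.86 ± 0.13, limma adjusted p = 0.0122) and from 1.67, 1.71 and 1.62 to 5.72, 4.72 and 4.40 FPKM in whole liver (1.32 ± 0.11, limma adjusted p = 0.00118). Itgav was the other higher gene in hepatocytes (0.52, adjusted p = 0.0602), lost without WT replicates 1 and 2 (0.47 for each, adjusted p = 0.166 and 0.144) and Cdk1 Liv-/- replicates 1 and 3 (0.49 for each, adjusted p = 0.146 and 0.158), and with the replicate block and the unmoderated test (adjusted p = 0.14 and 0.1), in a range of 0.00653 to 0.166. Itga8, an integrin chain known from stellate cells, was lower in hepatocytes (-1.20, adjusted p = 0.0623) and higher in whole liver (0.70, adjusted p = 0.00722). The hepatocyte call of Itga8 was lost without WT replicates 1 and 3 (-1.08 and -0.97, adjusted p = 0.169 and 0.132) and Cdk1 Liv-/- replicates 1, 2 and 3 (-1.15, -1.26 and -1.19, adjusted p = 0.15, 0.129 and 0.157), and with no filter, the replicate block and the unmoderated test (adjusted p = 0.149, 0.137 and 0.157), in a range of 0.00578 to 0.169.

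Among 9 tested cytokines known to act on matrix genes, 2 were higher and 3 lower in hepatocytes and 6 were higher in whole liver, with median log2 fold changes of -0.43 and 0.65 (-0.47 and 0.54 with size factors). Lif, a ligand of the interleukin-6 family, was at 0.01 FPKM in each WT hepatocyte library and at 1.51, 1.59 and 1.47 FPKM in Cdk1 Liv-/- hepatocytes (1.99 ± 0.10, limma adjusted p = 0.00062). In whole liver Lif was at 0.05, 0.02 and 0.03 FPKM in WT and at 2.75, 2.31 and 1.63 FPKM in Cdk1 Liv-/- (2.33 ± 0.16, limma adjusted p = 0.000785). With at most 0.05 FPKM in WT, Lif met the filter only through the Cdk1 Liv-/- libraries. Il1b fell in hepatocytes from 4.43, 3.83 and 4.78 to 0.69, 0.69 and 0.72 FPKM (-2.01 ± 0.14, limma adjusted p = 0.00159), and Il1a fell by 1.82 (limma adjusted p = 0.0109). Il6 was the last of the 3 lower genes in hepatocytes. In whole liver Il1b was higher, at 1.07, 0.93 and 1.70 FPKM in WT and 3.85, 8.0 and 2.41 FPKM in Cdk1 Liv-/- (1.48, adjusted p = 0.0380), a call lost without WT replicates 1 and 2 (1.42 and 1.36, adjusted p = 0.114 and 0.111) and in the unmoderated test (adjusted p = 0.101, in a range of 0.00718 to 0.114). Tgfb2 was higher in both compartments (0.62 and 0.77, adjusted p = 0.0422 and 0.00269), lost in hepatocytes without WT replicate 1 (0.61, adjusted p = 0.125) and Cdk1 Liv-/- replicates 1 and 3 (0.54 and 0.63, adjusted p = 0.105 and 0.103) and in the unmoderated test (adjusted p = 0.103), in a range of 0.00524 to 0.125.

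**Figure D5:**
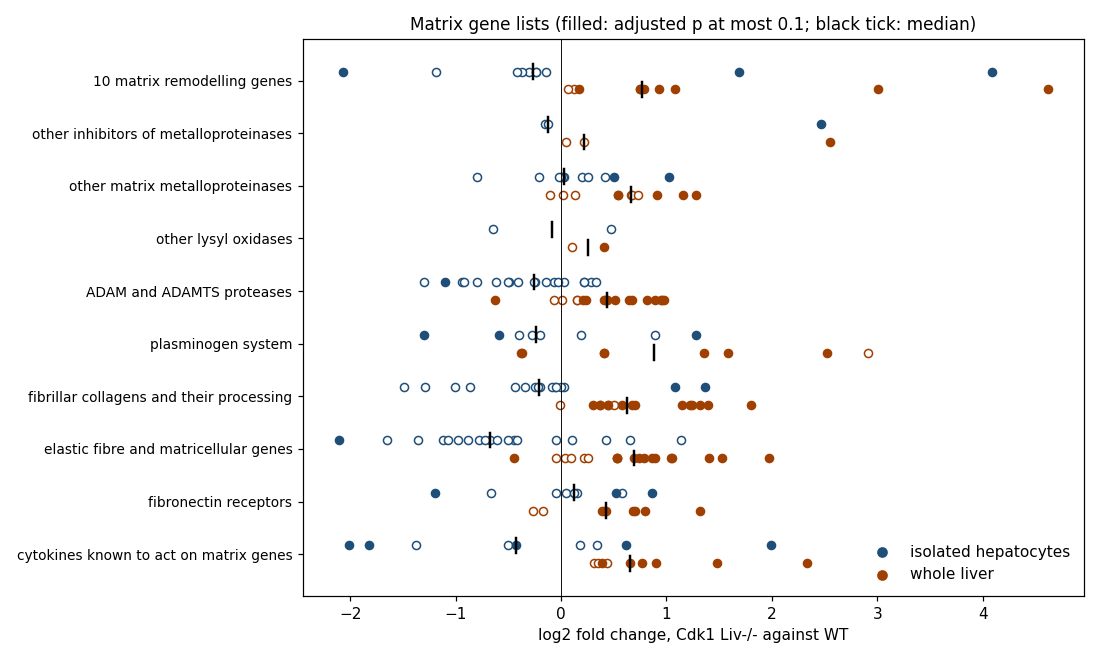
Log2 fold changes, Cdk1 Liv-/- against WT, of the 10 genes and of 9 lists of related genes in isolated hepatocytes and whole liver, 1 point per gene, filled at an adjusted p of at most 0.1, with black ticks at list medians. In whole liver the list medians lay between 0.22 and 0.89, of which the median of the other inhibitors turned to -0.00 with size factors, and in hepatocytes they lay between -0.67 and 0.12.

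Over the 12 libraries Timp2, Timp3, Mmp2, Mmp14, Lox, Loxl1 and Loxl2 shared a pattern, from which Timp1, Mmp12 and Fn1 stood apart. Pearson correlations of log2(FPKM + 0.5) are given as a description, since the libraries share 4 groups. Among the genes of the shared pattern they ran from 0.712, for Timp3 and Mmp14, to 0.992. Lox and Loxl1 ran closest together (0.992), followed by Timp2 and Loxl1 (0.982), while Timp1 ran with Mmp12 (0.932) and had coefficients near 0 with Mmp2 (-0.121) and Fn1 (0.0211). For each gene the genes with the highest correlation with it were sought among all genes tested. Such a coefficient does not compare levels or sizes of change. For Timp1 they were 2200002D01Rik (0.996) and Tmem176b (0.992). The former was at 0.38 to 0.57 FPKM in WT hepatocytes and at 4.65 to 6.52 FPKM in Cdk1 Liv-/- hepatocytes. Log2 fold changes of Tmem176b were 1.04 in hepatocytes and 1.13 in whole liver, against 4.09 and 4.62 for Timp1. For Mmp12 they were Tm4sf4 (0.985) and Sugt1 (0.980), and for Mmp14 Cln3 (0.983) and Ppp1r14b (0.964). Mmp2 was closest to Ptgs1 and Fhod1 (0.990 each), Lox to Tmem119 (0.993) and Fgl2 (0.992), and Loxl1 to Gm26532 and Crip1 (0.994 each). Loxl2 was closest to Nxn (0.989) and Hmox1 (0.981), Timp2 to Ssbp2 and Arhgef25 (0.988 each), and Timp3 to Parvb (0.984) and Vash1 (0.982). For Fn1, which varied least, the closest were Gm3531 (0.904) and Gm9493 (0.894).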

How the data were processed

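The deposited values are FPKM, made by the authors with STAR and RSEM 1.2.31 on build mm10 per the submitters' processing notes, and they carry 2 decimals. Reads were single ends of 75 bases from a stranded kit. The strand setting of RSEM is not given in the sources used here. It is thus not known whether reads of overlapping genes on opposite strands were told apart. All 12 columns were used.

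Two-sided tests came from limma 3.58.1 (R 4.3.3), fitted to log2(FPKM + 0.5) with moderated variances that follow the mean level. They covered the 17386 genes whose mean over the 12 libraries was at least 0.1 FPKM, all of which entered the Benjamini-Hochberg adjustment, and an adjusted p of at most 0.1 passed. Comparisons within a compartment or genotype used its 6 libraries, and the interaction all 12. Alternatives were pseudocounts of 0.1 and 1, no filter or a filter at 1 FPKM, median-ratio size factors, equal column sums, the replicate number as a block, an unmoderated test of each gene, 1 fit of all 12 libraries, each library left out in turn, and an added threshold of 1 on the log2 fold change.

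The members and lists were chosen with earlier results of these data known. Beyond the members, the text could name Cdk1, Xist and 4 Y-linked genes, every tested gene of the lists of other inhibitors, metalloproteinases and lysyl oxidases, the 2 highest and 2 lowest fold changes per compartment in each further pathway list, the most abundant marker of each cell type, and the 2 genes best correlated with each member. Not all of these are described, some items are not reported here, and Il6, Timp4, genes overlapping a member and cell markers other than the most abundant were named after their values were seen. Depth came from the steps of FPKM values of at most 0.5 for genes with 1 transcript of 300 to 900 bases, and this estimate and the fits were tested on simulated data. Positions and overlaps are from GENCODE M21 and promoter sequences from RefSeq GRCm38.p6.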

Additional observations from a re-analysis of the deposited data

Results flagged for a closer look

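These results differed between groups, the genotype change in hepatocytes being unlike that in whole liver. The hepatocyte change minus the whole liver change in log2 units was -2.24 for Mmp2, which was lower in Cdk1 Liv-/- hepatocytes and little moved in whole liver. It was -1.12 for Mmp14, -1.17 for Lox and -1.50 for Loxl1, all of which were higher in Cdk1 Liv-/- whole liver and did not pass in hepatocytes. All 4 calls were lost without WT whole liver replicate 1 (adjusted p = 0.129, 0.101, 0.13 and 0.165 in the order given), and that of Loxl1 also with size factors (adjusted p = 0.101). The median of the same difference was -1.26 for stellate, -1.74 for endothelial and -1.42 for Kupffer cell markers, and 0.32 for hepatocyte markers. The part of cell numbers in these results was not tested.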

How the results depend on the processing

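Of 150 values of the 10 genes under other settings in hepatocytes, 138 kept direction and side of the threshold, as did 129 of 150 in whole liver, 183 of 200 for the interaction, 124 of 150 between WT compartments and 143 of 150 between Cdk1 Liv-/- compartments. For the other genes run under these settings this held for 355 of 416 values in hepatocytes and 386 of 416 in whole liver. Mmp8, Il6 and the cell markers were not among the genes run. The cause was not tested for values that moved. Levels near 0, such as Timp1 and Mmp12 in WT hepatocytes, rest on a few reads, and the pseudocount sets the size of their changes.

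In hepatocytes the 1 lower gene became 0 with no filter, 2 with size factors, 0 with the replicate block, 0 with the unmoderated test, 3 in 1 fit of all 12 libraries and 0 to 2 with a library left out. All genes passing as higher (2108) became 1048 with the replicate block, 1352 unmoderated, 3434 in the 12-library fit, 730 with the fold threshold and 1157 to 1622 with a library left out. Lower genes among all genes (1149) became 714 with no filter, 408 with the block, 568 unmoderated, 2072 in the 12-library fit, 377 with the fold threshold and 402 to 1224 with a library left out.

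In whole liver the 8 higher genes became 5 in the 12-library fit, 3 with the fold threshold and 6 to 8 with a library left out. All genes passing as higher (6610) became 3107 with size factors, 798 with the fold threshold and 4509 to 6190 with a library left out. Lower genes among all genes (1310) became 2844, 174 and 859 to 1296 under the same changes.

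For the interaction the 4 smaller genes became 0 to 6 with a library left out. All genes passing as larger (409) became 237 with no filter, 201 with the replicate block, 241 unmoderated, 140 with the fold threshold and 35 to 487 with a library left out. All genes passing as smaller (1303) became 678 with no filter, 492 with size factors, 455 with the block, 698 unmoderated, 548 with the fold threshold and 43 to 2232 with a library left out.

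Between compartments in WT the 1 lower gene became 0 with a pseudocount of 0.1, 2 with a pseudocount of 1, 0 with no filter, 0 with size factors, 0 with the replicate block, 0 unmoderated, 3 in the 12-library fit and 0 to 6 with a library left out. All genes passing as lower (247) became 81 with a filter at 1 FPKM, 68 with size factors, 111 with equal column sums, 0 with the block, 23 unmoderated, 471 in the 12-library fit, 74 with the fold threshold and 0 to 2656 with a library left out. Between compartments in Cdk1 Liv-/- all genes passing as lower (6234) became 3710 with size factors, 1644 with the fold threshold and 4855 to 5896 with a library left out, and the 9 genes 8 to 9.

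Directions turned in hepatocytes without WT replicate 3 for 5 genes, whose log2 fold changes with a library left out ran from -0.71 to 0.07 for Timp2, -0.70 to 0.32 for Loxl2, -0.42 to 0.08 for Mmp23, -0.97 to 0.12 for Lum and -0.69 to 0.75 for Col1a1. Col1a1 also turned at a pseudocount of 0.1 (0.01) and when Cdk1 Liv-/- replicate 1 was left out (0.03). In whole liver they turned with size factors for Timp3 (-0.07), Mmp2 (-0.04) and Fn1 (-0.15). With a library left out Timp3 ran from -0.04 to 0.36, turning without WT replicate 1 (-0.03) or Cdk1 Liv-/- replicate 2, and Ltbp4 from -0.17 to 0.07, turning without WT replicate 3 or Cdk1 Liv-/- replicate 3 (0.06). The interaction of Timp1 turned with a pseudocount of 0.1 (0.31). Between WT compartments Mmp14 ran from -0.07 to 0.11, Loxl2 from -0.96 to 0.06 and Fn1 from -0.09 to 0.04 with a library left out, and Fn1 turned with size factors (0.12) and equal column sums (0.03). Between Cdk1 Liv-/- compartments Fn1 turned with size factors (0.05).

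Libraries with the same replicate number were not treated as pairs. Correlations of their deviations from group means ran from -0.317 to 0.239, and the block lowered the count of genes passing in hepatocytes to 1048 higher and 408 lower.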
